A study of Mus musculus with 24 samples.

Results

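The effect of a high-fat diet on liver RNA in 129S1/SvImJ, an inbred laboratory strain of mouse, was measured by comparing 6 mice on high-fat diet with 5 mice on chow. These 11 libraries, 1 per mouse, were picked from the 24 of the series by labelled strain and diet, and the other 13 came from C57BL/6J mice on the same diets (6 on chow and 7 on high-fat diet). The labels name no altered gene and no agent other than diet in any group, and age, sex, diet composition and feeding time are not given. RNA was taken from whole liver and depleted of ribosomal RNA, so each value pools all cell types of the organ, and fewer cells of a type cannot be told apart from less RNA per cell. All 14533 genes with enough counts were tested. Genes of cholesterol synthesis and uptake, of which 26 of 28 tested fell (median log2 fold change -1.85), are given here only through their regulator, and the results below concern transcription factors, transporters, secreted proteins and the remaining genes.

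The liver takes up fatty acids and cholesterol from lipoproteins, makes both when supply is short, and exports them as lipoproteins and in bile. Several transcription factors sense this supply: SREBP-2 is released from the endoplasmic reticulum when membrane sterol is low and raises genes of cholesterol synthesis, LXR binds oxysterols and raises genes of sterol efflux, PPAR-alpha binds fatty acids and raises genes of their oxidation, and ATF4 raises genes of amino acid supply under stress. Bone morphogenetic proteins from the sinusoidal endothelium act through SMAD proteins on hepatocytes, where they raise the iron hormone hepcidin.

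The high-fat diet was followed by changes of moderate size in many genes. Of 14533 genes tested, 1514 (10.4%) were called, meaning an edgeR adjusted p under 0.05 (quasi-likelihood test, adjusted over all genes tested). There were 786 called higher (5.41%) and 728 called lower (5.01%) on high-fat diet. The median log2 fold change was 0.435 among those higher, -0.507 among those lower and -0.004 over all genes. A change of over 2-fold was seen in 15.1% of the higher and 20.6% of the lower genes, and 941 changed by under 1.5-fold. In 451 of the higher and 417 of the lower genes, the values of the 6 high-fat livers did not overlap those of the 5 chow livers. Such separation was found, called or not, in 575 (3.96%) of all genes in the higher and 549 (3.78%) in the lower direction.

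Total counts ran from 7607255 to 9184270 per chow library and from 6707013 to 13035534 per high-fat library. The hepatocyte markers held 108689 to 129282 CPM (counts scaled to the adjusted library size) in chow livers and 97025 to 118792 CPM on high-fat diet. Xist was under 1 CPM and the Y-linked gene Ddx3y between 96.2 and 143 CPM in all 11 livers. The first principal component of log2 CPM held 30.6% of the variance and separated the diets, with chow livers at -39.7 to -15.5 and high-fat livers at 15.1 to 29.9.

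Some libraries stood apart within their group. The mouse IDs in the titles carry a number whose meaning the labels do not give, shared by chow replicates 1 to 3, by chow replicates 4 and 5, by high-fat replicates 1 to 3 and by high-fat replicates 4 to 6. Of 23 tested genes of the circadian clock, the daily oscillator of the liver, 14 had no overlap between the 2 sets of chow livers, 60.9% against 24.9% of all genes tested, and 9 overlapped, among them Cry1, Cry2, Per1 and Nr1d1. Ciart, a repressor of the clock, was at 3.09, 9.42 and 5.53 CPM in chow replicates 1 to 3, at 20.23 and 24.02 CPM in chow replicates 4 and 5, and at 17.6 to 20.2 CPM on high-fat diet. Arntl, the clock's activator, was at 10.4, 5.34 and 6.07 CPM in chow replicates 1 to 3, at 1.80 and 1.31 CPM in chow replicates 4 and 5, and at 1.62 to 2.65 CPM on high-fat diet. Chow replicates 4 and 5 thus lay near the high-fat livers, and chow replicates 1 to 3 did not. The deubiquitinase gene Usp2, a rhythmic gene, ran the same way, at 8.53 to 32.3 CPM, 53.4 to 68.9 CPM and 59.2 to 92.9 CPM. The part of the time of day or of any other difference between these sets in the diet calls was not tested.

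Without chow replicates 1 to 3, which left 2 chow livers, 269 genes were called, 257 of them among the 1514. Without chow replicates 4 and 5, 1456 were called, 1104 of them among the 1514. The direction held without chow replicates 1 to 3 in 1509 of the 1514 genes, the log2 fold change was 0.881 times the original in the median, and in 124 genes it was under 0.5 times the original. Genes named below whose fold change moved by over 1.5 times are given with that value. Among high-fat livers, replicates 3 and 6 were at -25.3 and -25.6 on the second component (13.6% of the variance), where replicates 1, 4 and 5 were at 14.3 to 21.8. They had 908 and 766 CPM of Cyp7b1, an oxysterol hydroxylase, against 310 to 388 CPM in the other high-fat livers and 320 to 542 CPM on chow. Without these 2 livers 1192 genes were called, 1001 of them among the 1514.

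**Figure D1:**
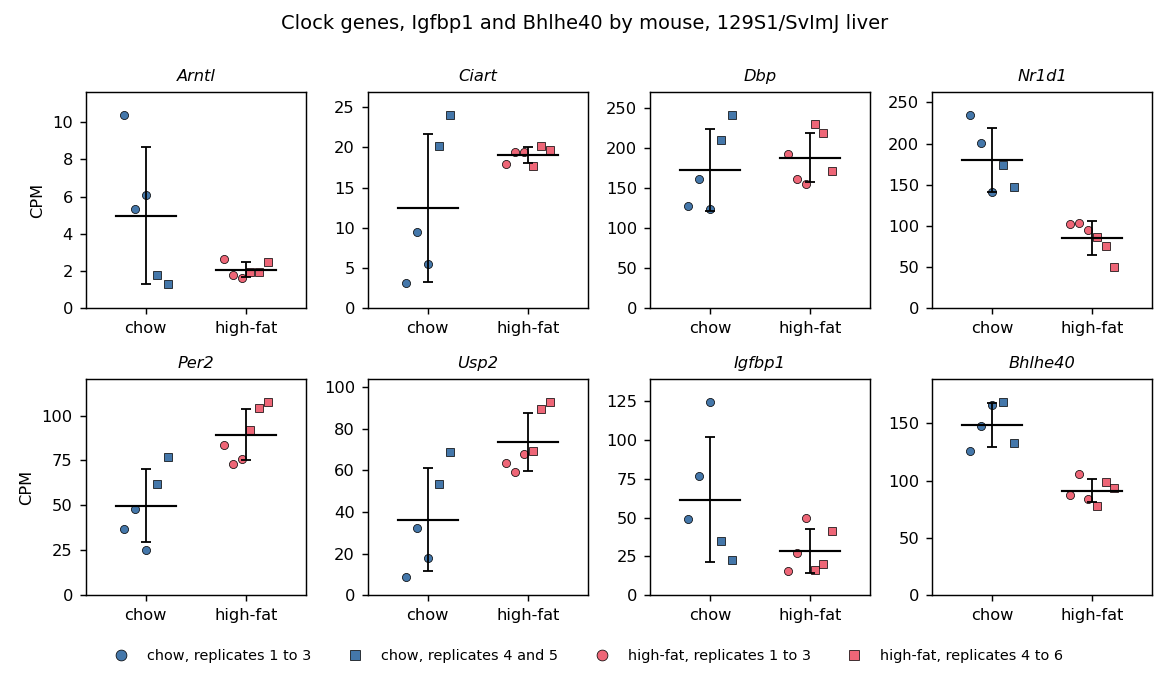
CPM of clock genes, Igfbp1 and Bhlhe40 in each 129S1/SvImJ liver by diet (circles and squares: sets sharing an ID number; horizontal line and bars: mean and SD). For Arntl, Ciart and Usp2 chow replicates 4 and 5 sit with the 6 high-fat livers, and for Nr1d1 and Bhlhe40 all 6 high-fat livers sit below all 5 chow livers.

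By role, the called genes were spread unevenly over the lists of liver genes. Of 786 tested transcriptional regulators, 18 rose and 52 fell (8.91% called, against 10.4% of all genes). Of 483 transporters 37 rose and 30 fell (13.9%), and of 456 secreted proteins 38 rose and 20 fell (12.7%). Of 573 metabolic enzymes outside cholesterol synthesis 93 rose and 40 fell (23.2%). Of 616 receptors, kinases and other signalling genes 30 rose and 45 fell (12.2%). In 8263 protein-coding genes of no list 467 rose and 382 fell (10.3%). Without chow replicates 1 to 3 the numbers higher and lower were 1 and 6 for regulators, 12 and 6 for transporters, 8 and 5 for secreted proteins and 27 and 13 for enzymes. Without high-fat replicates 3 and 6 they were 15 and 37, 32 and 29, 33 and 14, and 82 and 33. No median log2 fold change of these groups was outside -0.07 to 0.07.

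**Figure D2:**
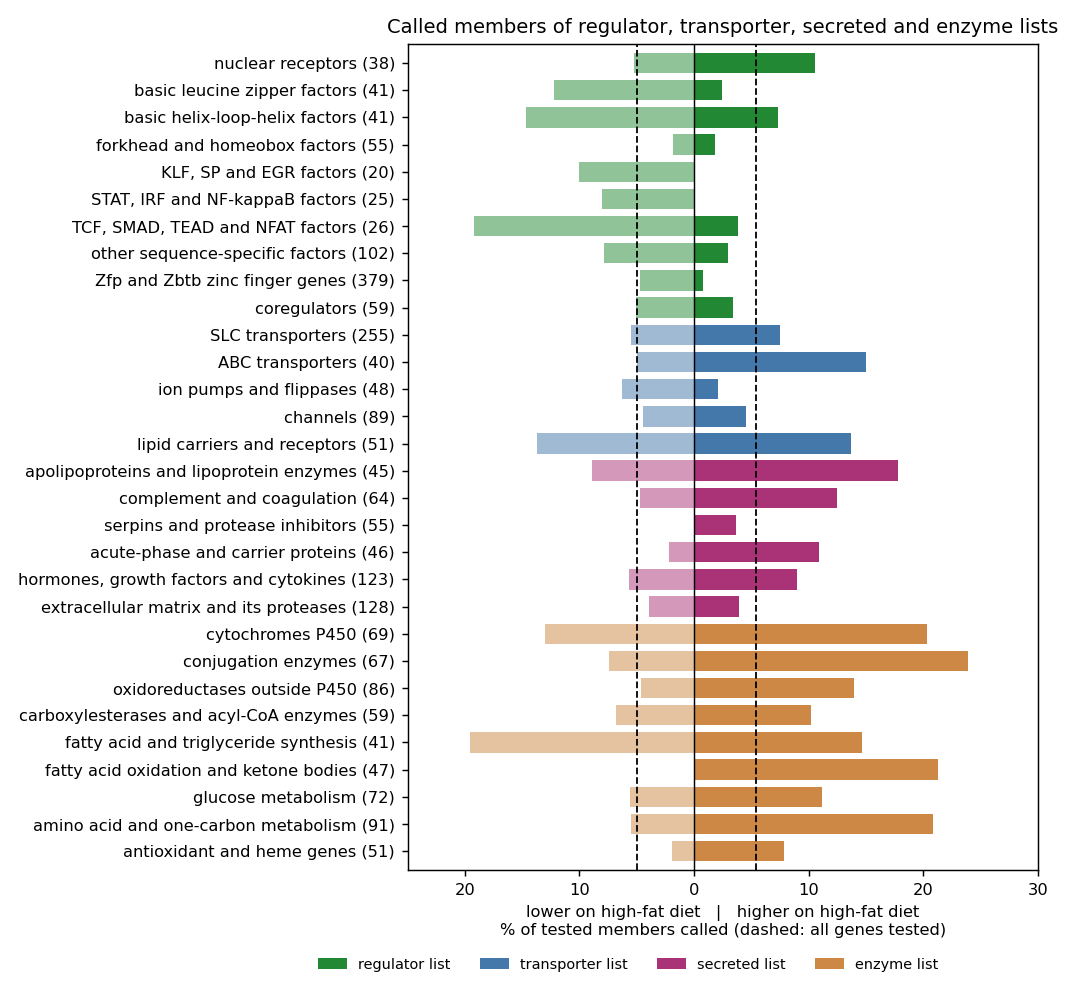
Percent of the tested members of the regulator, transporter, secreted protein and enzyme lists that were called lower (pale, to the left) or higher (dark, to the right) on high-fat diet in 129S1/SvImJ, with the number tested in parentheses. Dashed lines mark all genes tested (5.01% lower, 5.41% higher). The cholesterol list, the lists drawn up after values were seen and the signalling, machinery and marker lists are not shown. Among the lists shown, conjugation enzymes, fatty acid oxidation genes, amino acid enzymes and cytochromes P450 reach furthest to the right, and the TCF, SMAD, TEAD and NFAT factors and fatty acid synthesis genes furthest to the left.

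Among transcriptional regulators, Srebf2, Klf10, Klf11, Smad7 and Id1 fell, and Foxo1 and Esrrg rose. Srebf2, which encodes SREBP-2 (ENSMUSG00000022463.8, chromosome 15, 82147181 to 82205379), was at 122, 119.03, 92.4, 83.4 and 127 CPM in the 5 chow livers and 38.2 to 49.5 CPM (median 39.0) in the 6 high-fat livers. All high-fat livers were below all chow livers, and the high-fat values lay close together. In log2 terms the change was -1.39 ± 0.13 (SE), with an edgeR adjusted p of 1.03e-07. Srebf1, which encodes the related factor of fatty acid synthesis (ENSMUSG00000020538.15, chromosome 11, 60199089 to 60222581), was at 329, 266, 268, 282 and 349 CPM in the 5 chow livers and 259 to 597 CPM (median 503) in the 6 high-fat livers. The groups overlapped through high-fat replicate 3, the lowest of all 11 livers, and the other 5 high-fat livers were above every chow liver. Its log2 fold change was 0.67 ± 0.20 (SE), with an edgeR adjusted p of 0.0309, and the call was lost when chow replicate 1, 2, 3 or 4 or high-fat replicate 1, 2, 4 or 5 was left out.

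Klf11 and Klf10, zinc finger repressors known as early targets of TGF-beta, were the called members among 20 KLF, SP and EGR factors, and both fell. Klf11 (ENSMUSG00000020653.12, chromosome 12, 24651274 to 24662789) was at 17.8, 19.3, 20.4, 23.6 and 16.1 CPM in the 5 chow livers and 8.10 to 11.2 CPM (median 9.20) in the 6 high-fat livers. The chow and high-fat ranges were well apart. On the log2 scale the difference between diets was -1.05 ± 0.14 (SE), with an edgeR adjusted p of 1.77e-05. Klf10 (ENSMUSG00000037465.10, chromosome 15, 38291463 to 38300706) was at 59.6, 64.9, 65.2, 114 and 58.5 CPM in the 5 chow livers and 19.8 to 45.1 CPM (median 26.8) in the 6 high-fat livers. Chow replicate 4 stood above the rest, and the groups did not overlap. The fitted log2 fold change was -1.29 ± 0.26 (SE), with an edgeR adjusted p of 0.00277.

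Smad7, the inhibitory SMAD that feeds back on TGF-beta and BMP receptors (ENSMUSG00000025880.11, chromosome 18, 75367529 to 75395935), was at 56.0, 44.5, 49.6, 32.9 and 43.2 CPM in the 5 chow livers and 14.2 to 24.4 CPM (median 21.8) in the 6 high-fat livers. No high-fat liver reached the lowest chow liver. This was a log2 fold change of -1.13 ± 0.20 (SE), with an edgeR adjusted p of 0.000907. Id1, a dominant-negative helix-loop-helix protein and a direct BMP target (ENSMUSG00000042745.9, chromosome 2, 152736251 to 152737410), was at 10.1, 4.29, 7.42, 2.81 and 4.20 CPM in the 5 chow livers and 0.935 to 2.57 CPM (median 1.69) in the 6 high-fat livers. The groups did not overlap, but the highest chow values came from chow replicates 1 to 3. The diet effect as a log2 fold change was -1.68 ± 0.40 (SE), with an edgeR adjusted p of 0.00838, and without chow replicates 1 to 3 the log2 fold change was -0.96. Zfpm1, the cofactor of GATA proteins, fell from 72.6 ± 6.59 to 43.7 ± 7.38 CPM (log2 fold change -0.73 ± 0.10, edgeR adjusted p = 3.89e-05). Here and below, ± after a mean CPM is the SD over the livers of a diet, and ± after a log2 fold change is the SE.

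Of 41 basic leucine zipper factors 1 rose and 5 fell, 14.6% against 10.4% of all genes. Cebpa, a master factor of hepatocyte gene expression (ENSMUSG00000034957.10, chromosome 7, 35119293 to 35121928), was at 661, 643, 675, 621 and 666 CPM in the 5 chow livers and 398 to 512 CPM (median 464) in the 6 high-fat livers. The chow values were tight and every high-fat value lay lower. Between diets the log2 fold change was -0.50 ± 0.09 (SE), with an edgeR adjusted p of 0.000624. Atf4, the effector of the integrated stress response (ENSMUSG00000042406.8, chromosome 15, 80255184 to 80257541), was at 73.9, 68.9, 89.4, 66.5 and 60.0 CPM in the 5 chow livers and 43.6 to 58.1 CPM (median 47.5) in the 6 high-fat livers. The highest high-fat liver was just under the lowest chow liver. Expressed as a log2 fold change, this was -0.56 ± 0.10 (SE), with an edgeR adjusted p of 0.000459. Atf5, a related stress factor, fell from 250.3 ± 68.1 to 148 ± 21.1 CPM (log2 fold change -0.76 ± 0.16, edgeR adjusted p = 0.0038), and without chow replicates 1 to 3 the log2 fold change was -0.32.

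Other helix-loop-helix factors that fell were Bhlhe40, a repressor that feeds into the clock (log2 fold change -0.70 ± 0.12, edgeR adjusted p = 0.000263), and Ahr, the receptor of dioxin and tryptophan derivatives (log2 fold change -0.53 ± 0.13, edgeR adjusted p = 0.0117). Arnt, the partner of Ahr, rose (log2 fold change 0.37 ± 0.08, edgeR adjusted p = 0.00526). Bhlhe40 was at 126, 148, 166, 169 and 133 CPM in the 5 chow livers and 78.0 to 106 CPM (median 90.5) in the 6 high-fat livers, with no overlap and with no split between the chow livers along the ID number. Tcf24, a helix-loop-helix gene, had one of the larger falls of the expressed protein-coding genes, from 10.6 ± 3.13 to 2.72 ± 1.27 CPM (log2 fold change -1.92 ± 0.38, edgeR adjusted p = 0.00177).

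Foxo1, which raises genes of gluconeogenesis when insulin is low (ENSMUSG00000044167.6, chromosome 3, 52268336 to 52353221), was at 69.0, 79.9, 84.6, 87.6 and 97.9 CPM in the 5 chow livers and 112 to 176 CPM (median 127) in the 6 high-fat livers. Each high-fat value was above each chow value. The log2 fold change was 0.66 ± 0.12 (SE), with an edgeR adjusted p of 0.00107. It was the called higher member among 55 forkhead and homeobox factors, of which 1 other was called, lower (3.64% called, against 10.4% of all genes). Among 38 nuclear receptors 4 rose and 2 fell (15.8% called). Esrrg, an orphan receptor that controls genes of mitochondrial metabolism (ENSMUSG00000026610.13, chromosome 1, 187608791 to 188214885), was at 4.45, 7.22, 8.63, 4.496 and 5.91 CPM in the 5 chow livers and 8.99 to 13.1 CPM (median 10.8) in the 6 high-fat livers. The lowest high-fat liver was above the highest chow liver by a small margin. In log2 terms the change was 0.84 ± 0.17 (SE), with an edgeR adjusted p of 0.00164. Nr1d1, the heme-binding repressor of the clock (ENSMUSG00000020889.11, chromosome 11, 98767932 to 98775333), was at 234.6, 201, 142, 174 and 147 CPM in the 5 chow livers and 49.7 to 104 CPM (median 90.7) in the 6 high-fat livers, again without overlap. Its log2 fold change was -1.07 ± 0.21 (SE), with an edgeR adjusted p of 0.00203.

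In the cytokine and interferon families Stat2, a part of the interferon-activated complex, fell from 95.8 ± 11.5 to 71.8 ± 2.31 CPM (log2 fold change -0.41 ± 0.08, edgeR adjusted p = 0.000798). Of the nuclear factor I genes, Nfic rose from 199.5 ± 23.4 to 268 ± 27.6 CPM (log2 fold change 0.43 ± 0.08, edgeR adjusted p = 0.000991) and Nfib rose from 307 ± 17.2 to 382 ± 32.6 CPM (log2 fold change 0.32 ± 0.07, edgeR adjusted p = 0.00233). Of 379 tested Zfp and Zbtb zinc finger genes 3 rose and 18 fell, 5.54% against 10.4% of all genes.

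The best-known nuclear receptors of bile acids, oxysterols and fatty acids did not pass the test at the RNA level. On the log2 scale the difference between diets was -0.21 ± 0.08 (SE) for Nr1h4, the bile acid receptor FXR (edgeR adjusted p = 0.0727), and it passed without high-fat replicate 6 (0.0419). It was 0.04 ± 0.07 for Nr1h3, which encodes LXR-alpha (edgeR adjusted p = 0.766), and 0.24 ± 0.09 for Ppara (edgeR adjusted p = 0.0969). For Hnf4a it was -0.24 ± 0.14 (edgeR adjusted p = 0.321). Onecut1 ran from 21.4 to 36.1 CPM in chow replicates 1 to 3, was at 81.4 and 79.4 CPM in chow replicates 4 and 5 and ran from 44.6 to 108 CPM on high-fat diet, so its diet difference (log2 fold change 0.71 ± 0.53, edgeR adjusted p = 0.445) was not called and became -0.01 without chow replicates 1 to 3.

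**Figure D3:**
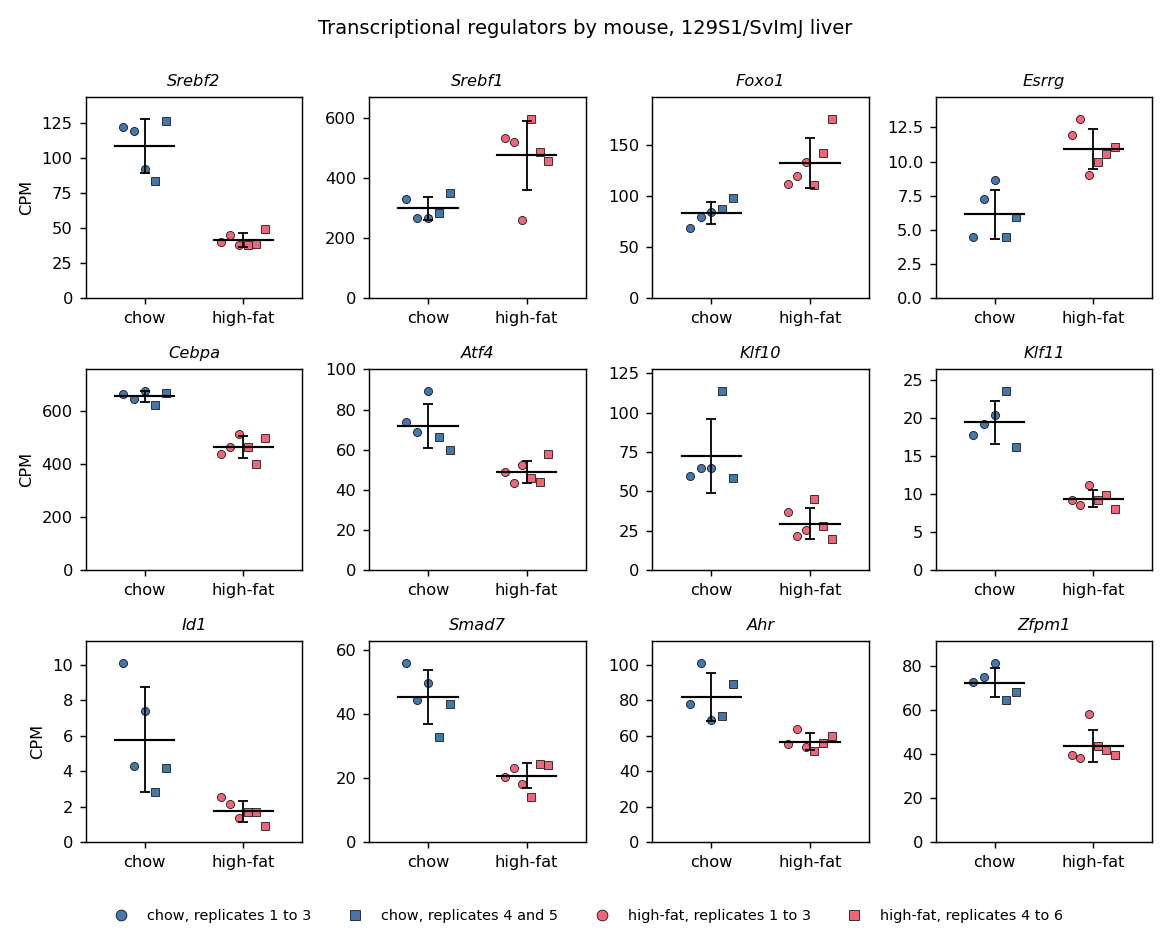
CPM of 12 transcriptional regulators in each 129S1/SvImJ liver by diet (circles and squares: sets sharing an ID number; horizontal line and bars: mean and SD). Srebf2, Klf11, Smad7 and Cebpa are lower in all 6 high-fat livers than in any of the 5 chow livers, Foxo1 and Esrrg higher, and 1 high-fat liver brings Srebf1 into overlap.

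Known targets of some of these factors were counted next, from lists drawn up after gene values had been seen, so that their counts are descriptions. Of 22 tested genes that LXR is known to raise, other than genes of cholesterol synthesis, 13 rose and 1 fell, the lysosomal sterol carrier Npc2 (log2 fold change -0.40 ± 0.10, edgeR adjusted p = 0.00891). The share called was 63.6%, against 10.4% of all genes. The median log2 fold change was 0.42, against -0.004 over all genes, and without chow replicates 1 to 3 there were 3 higher and none lower, with a median of 0.45. Abcg5, Abcg8, Abca1 and Slc2a4 are described with the transporters. Abcg1, a sterol efflux pump, rose from 8.82 ± 1.02 to 15.01 ± 2.89 CPM (log2 fold change 0.77 ± 0.15, edgeR adjusted p = 0.00133), and the lipoprotein lipase gene Lpl rose from 21.9 ± 4.14 to 48.0 ± 18.1 CPM (log2 fold change 1.13 ± 0.26, edgeR adjusted p = 0.00788); both were picked after their values were seen, as were Atoh8, Id2 and Cars below. Scd1, the delta-9 desaturase, rose (log2 fold change 1.05 ± 0.28, edgeR adjusted p = 0.0169), with the call lost when chow replicate 2 was left out.

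The list of genes that SMAD proteins are known to raise was also drawn up after values were seen. It holds genes already seen to fall, so its share is a description and not a test. Of 21 tested, 9 fell and none rose (42.9% against 5.01% of all genes, median log2 fold change -0.60). Besides Klf11, Klf10, Smad7 and Id1, these included Atoh8, a helix-loop-helix factor of the hepcidin response (log2 fold change -1.27 ± 0.25, edgeR adjusted p = 0.0017), the hepcidin gene Hamp, and Id2 (log2 fold change -0.84 ± 0.21, edgeR adjusted p = 0.0148). The call of Id2 was lost without chow replicate 1, and its log2 fold change was -0.48 without chow replicates 1 to 3. Without those livers 2 of the 21 were called, both lower, with a median of -0.47. The ligand gene Bmp6, which in liver comes mainly from sinusoidal endothelium, was at 11.004, 10.3, 9.44, 9.55 and 13.4 CPM in the 5 chow livers and 4.32 to 7.49 CPM (median 6.602) in the 6 high-fat livers. No high-fat value reached the chow range. The fitted log2 fold change was -0.78 ± 0.16 (SE), with an edgeR adjusted p of 0.00243. The 20 tested markers of sinusoidal endothelium held none called, with summed levels of 971 to 1332 CPM on chow and 1128 to 1312 CPM on high-fat diet.

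The list of genes that ATF4 is known to raise was likewise drawn up after values were seen, so its share is a description. Of 29 tested, 6 fell and none rose, 20.7% against 5.01% of all genes, with a median log2 fold change of -0.13. These were Atf5, Fgf21, the pseudokinase gene Trib3 (log2 fold change -1.22 ± 0.26, edgeR adjusted p = 0.00399), the cysteinyl-tRNA synthetase gene Cars (log2 fold change -0.69 ± 0.11, edgeR adjusted p = 0.000129), the amino acid transporter subunit Slc3a2 and the asparagine synthetase gene Asns. The call of Asns (log2 fold change -1.58 ± 0.49, edgeR adjusted p = 0.0403) was lost under 8 of 11 omissions of a library (chow replicates 1, 4 and 5 and high-fat replicates 1, 2, 3, 4 and 6). Without chow replicates 1 to 3, 1 of the 29 was called.

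Recognition sequences of SREBP proteins and of ATF4 were looked for in promoters, 250 bases before to 50 bases after the start, of the 10265 tested genes with an entry in the RefSeq table (build GRCm38.p6), on both strands. The letters TCACNCCAC, a sterol regulatory element to which SREBP proteins bind, were in 1.5% of all these promoters. They were in 1.98% of 606 called higher and in 3.13% of 511 called lower outside the cholesterol list. Of 20 genes of that list only 1 held them, Hmgcs1 (5.0%). The letters TGATGNAAT, an amino acid response element to which ATF4 binds, were in 0.604% of all, 0.33% of the higher and 0.978% of the lower genes. A match describes letters only. The sequences below, from the promoters' first base to the base before the start (to the end of the match for Cyp2b10, where it crosses the start), are those of 4 genes that fell and hold a match, chosen after the search. They show where the match (in capitals) lies. Aldoc lies on the + strand (chr11:78322823-78323072) and its match began 80 bases before the first of 2 starts in the RefSeq table. The GENCODE gene model of Aldoc begins upstream of this match (78322968). For Cyp2b10 (chr7:25897408-25897659, + strand) the letters run on the other strand, 7 bases before the start, and the GENCODE gene model again begins upstream (25897620). For Fgf21 (chr7:45615491-45615740, - strand) they also run on the other strand, 140 bases before the start. For Angptl8 (chr9:21835260-21835509, + strand) the match began 130 bases before the start.
Aldoc: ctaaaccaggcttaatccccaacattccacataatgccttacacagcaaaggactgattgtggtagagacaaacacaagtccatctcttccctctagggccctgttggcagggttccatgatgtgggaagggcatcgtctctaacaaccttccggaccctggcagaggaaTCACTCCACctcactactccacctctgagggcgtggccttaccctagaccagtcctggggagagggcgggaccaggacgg
Cyp2b10: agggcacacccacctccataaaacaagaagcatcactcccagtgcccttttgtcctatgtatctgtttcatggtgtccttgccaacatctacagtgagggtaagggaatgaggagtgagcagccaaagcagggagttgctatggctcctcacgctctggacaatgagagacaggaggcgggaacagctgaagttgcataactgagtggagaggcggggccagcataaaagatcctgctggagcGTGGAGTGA
Fgf21: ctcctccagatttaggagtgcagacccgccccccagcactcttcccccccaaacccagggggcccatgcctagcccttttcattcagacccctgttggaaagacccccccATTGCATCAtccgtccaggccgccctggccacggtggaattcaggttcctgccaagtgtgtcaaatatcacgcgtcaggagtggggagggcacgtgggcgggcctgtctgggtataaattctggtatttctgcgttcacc
Angptl8: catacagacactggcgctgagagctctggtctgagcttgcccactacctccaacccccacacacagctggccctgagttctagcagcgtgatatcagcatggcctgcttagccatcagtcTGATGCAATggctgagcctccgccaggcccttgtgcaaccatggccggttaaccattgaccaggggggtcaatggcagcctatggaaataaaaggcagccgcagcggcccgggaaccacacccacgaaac

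Among transporters, Abcg5, Abcg8, Abca1, Slc2a1 and Slc27a2 rose, and Slc25a1 and Slc30a10 fell. Of 40 tested ABC pumps 6 rose and 2 fell, 20% called against 10.4% of all genes. Abcg5, one of the paired pumps that move cholesterol and plant sterols into bile (ENSMUSG00000040505.13, chromosome 17, 84658234 to 84683011), was at 110.4, 125, 126, 141 and 137 CPM in the 5 chow livers and 284 to 359 CPM (median 345) in the 6 high-fat livers. The lowest high-fat liver had about 2 times the highest chow value. This was a log2 fold change of 1.40 ± 0.14 (SE), with an edgeR adjusted p of 2.9e-07. Its partner Abcg8 rose from 224 ± 19.98 to 424 ± 30.3 CPM (log2 fold change 0.92 ± 0.17, edgeR adjusted p = 0.00107). Abca1, which loads cholesterol onto apolipoprotein A-I, rose from 582 ± 59.6 to 823 ± 43.5 CPM (log2 fold change 0.50 ± 0.08, edgeR adjusted p = 0.000229). Abcg2, a pump of urate, porphyrins and drugs (ENSMUSG00000029802.13, chromosome 6, 58584523 to 58695676), was at 78.1, 79.7, 104, 90.6 and 95.2 CPM in the 5 chow livers and 167 to 232 CPM (median 187) in the 6 high-fat livers. There was a wide gap between the groups. The diet effect as a log2 fold change was 1.10 ± 0.11 (SE), with an edgeR adjusted p of 1.09e-07.

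Slc2a4, the insulin-responsive glucose carrier GLUT4 of muscle and fat (ENSMUSG00000018566.14, chromosome 11, 69942539 to 69948188), was low in chow livers, at 0.371, 1.15, 0.135, 0.562 and 0.525 CPM in the 5 chow livers and 1.08 to 7.67 CPM (median 5.202) in the 6 high-fat livers. High-fat replicate 3 lay within the chow range and the other 5 were above it. Between diets the log2 fold change was 3.10 ± 0.46 (SE), with an edgeR adjusted p of 7.63e-05. The adipocyte hormone gene Adipoq was at no more than 0.866 CPM in any liver, and that highest value was in chow replicate 1. The general glucose carrier Slc2a1 rose from 8.84 ± 0.412 to 14.1 ± 2.28 CPM (log2 fold change 0.67 ± 0.11, edgeR adjusted p = 0.000234).

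Of 255 solute carriers 19 rose and 14 fell, 12.9% against 10.4% of all genes. Slc27a2, a fatty acid carrier and very-long-chain acyl-CoA synthetase (ENSMUSG00000027359.16, chromosome 2, 126552407 to 126588243), was at 1502, 1569.5, 1702, 1428 and 1420.4 CPM in the 5 chow livers and 2074 to 2638 CPM (median 2246) in the 6 high-fat livers, without overlap. Expressed as a log2 fold change, this was 0.61 ± 0.10 (SE), with an edgeR adjusted p of 0.000131. Slc25a1, which exports citrate from mitochondria for lipid synthesis, fell from 187 ± 14.1 to 122 ± 9.53 CPM (log2 fold change -0.62 ± 0.09, edgeR adjusted p = 5.1e-05). Slc25a47, a liver-specific mitochondrial carrier, fell from 621 ± 74.0 to 370.3 ± 33.8 CPM (log2 fold change -0.75 ± 0.13, edgeR adjusted p = 0.000292). Slc30a10, an exporter of manganese (ENSMUSG00000026614.6, chromosome 1, 185454848 to 185468762), was at 76.3, 53.7, 72.6, 41.1 and 32.9 CPM in the 5 chow livers and 13.02 to 27.0 CPM (median 19.6) in the 6 high-fat livers. The groups were apart, and chow replicates 1 to 3 were the highest. The log2 fold change was -1.47 ± 0.25 (SE), with an edgeR adjusted p of 0.000624, which became -0.90 without chow replicates 1 to 3. The citrate carrier Slc13a2 fell from a low level, from 2.12 ± 0.706 to 0.643 ± 0.316 CPM (log2 fold change -1.71 ± 0.43, edgeR adjusted p = 0.0111), and was picked after its values were seen.

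Lipid carriers and receptors went both ways, with 7 of 51 higher and 7 lower, 27.5% against 10.4% of all genes. Scarb1, the receptor SR-BI that takes cholesteryl ester from high-density lipoprotein (ENSMUSG00000037936.15, chromosome 5, 125277087 to 125341094), was at 292, 291, 268, 229.5 and 248 CPM in the 5 chow livers and 369.7 to 421 CPM (median 386) in the 6 high-fat livers. Every high-fat liver exceeded every chow liver. In log2 terms the change was 0.55 ± 0.09 (SE), with an edgeR adjusted p of 0.00036. Fabp2, the intestinal-type fatty acid binding protein, rose from 34.3 ± 7.05 to 60.7 ± 3.70 CPM (log2 fold change 0.83 ± 0.14, edgeR adjusted p = 0.000419). The water channel gene Aqp4 rose from 0.570 ± 0.341 to 3.75 ± 1.88 CPM (log2 fold change 2.68 ± 0.58, edgeR adjusted p = 0.00421). Atp7b, the copper pump of bile excretion, fell from 96.0 ± 14.4 to 72.1 ± 5.997 CPM (log2 fold change -0.41 ± 0.10, edgeR adjusted p = 0.0103), and Gjb2, a gap junction protein of hepatocytes, fell from 362 ± 17.6 to 288 ± 27.1 CPM (log2 fold change -0.33 ± 0.08, edgeR adjusted p = 0.00487).

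Among genes of secreted proteins, Saa4, C9 and F9 rose and Hamp and Apoa5 fell. Hamp, the iron hormone hepcidin (ENSMUSG00000050440.8, chromosome 7, 30942368 to 30944032), was at 797, 639.5, 578, 752 and 872 CPM in the 5 chow livers and 137 to 316 CPM (median 181) in the 6 high-fat livers. The highest high-fat value was well under the lowest chow value. Its log2 fold change was -1.76 ± 0.38 (SE), with an edgeR adjusted p of 0.005. Fgf21, a hormone of the fasted and the amino-acid-starved liver (ENSMUSG00000030827.5, chromosome 7, 45613886 to 45615490), was at 16.8, 3.87, 6.75, 3.26 and 2.10 CPM in the 5 chow livers and 0.596 to 3.96 CPM (median 1.40) in the 6 high-fat livers. Chow replicate 1 stood far above the others, and the groups overlapped. On the log2 scale the difference between diets was -2.02 ± 0.55 (SE), with an edgeR adjusted p of 0.0205. Without chow replicate 1 or high-fat replicate 5 the call was lost, and the log2 fold change was -1.31 without the former and -0.75 without chow replicates 1 to 3.

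Angptl8, an inhibitor of lipoprotein lipase that rises with feeding (ENSMUSG00000047822.8, chromosome 9, 21835510 to 21837347), was at 45.0, 17.6, 21.99, 14.1 and 10.4 CPM in the 5 chow livers and 4.67 to 9.12 CPM (median 6.31) in the 6 high-fat livers. Here too chow replicate 1 was the highest, but the groups did not overlap. The fitted log2 fold change was -1.68 ± 0.46 (SE), with an edgeR adjusted p of 0.023. Leaving out chow replicate 1 or high-fat replicate 5 ended its call, and the log2 fold change without chow replicates 1 to 3 was -0.85. Igfbp1, an insulin-repressed binding protein of insulin-like growth factors, was not called (log2 fold change -1.14 ± 0.46, edgeR adjusted p = 0.131) and became -0.05 without chow replicates 1 to 3. Igf1 itself was at 0.01 ± 0.10 (log2 fold change, SE; edgeR adjusted p = 0.974).

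Of 45 apolipoproteins and lipoprotein enzymes 8 rose and 4 fell, 26.7% against 10.4% of all genes. Apoa5, an activator of triglyceride clearance (ENSMUSG00000032079.12, chromosome 9, 46268633 to 46271919), was at 1061, 1153, 1532, 1167 and 1308 CPM in the 5 chow livers and 576 to 914 CPM (median 750.3) in the 6 high-fat livers. The highest high-fat value stayed under the lowest chow value. This was a log2 fold change of -0.77 ± 0.12 (SE), with an edgeR adjusted p of 0.000144. Lipg, the endothelial lipase that acts on high-density lipoprotein, fell from 32.5 ± 7.96 to 13.4 ± 4.98 CPM (log2 fold change -1.29 ± 0.28, edgeR adjusted p = 0.00427). Saa4, the constitutive serum amyloid of lipoproteins (ENSMUSG00000040017.8, chromosome 7, 46727998 to 46732603), was at 196, 238, 278, 257 and 277 CPM in the 5 chow livers and 442 to 691 CPM (median 587) in the 6 high-fat livers. The ranges were apart. The diet effect as a log2 fold change was 1.19 ± 0.17 (SE), with an edgeR adjusted p of 7.9e-05. Clu, which encodes the chaperone clusterin, rose from 1120.0 ± 91.4 to 1441 ± 74.2 CPM (log2 fold change 0.36 ± 0.08, edgeR adjusted p = 0.00231).

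Of 64 complement and coagulation genes 8 rose and 3 fell, 17.2% against 10.4% of all genes. Without chow replicates 1 to 3, 1 of the 64 was called, higher. C9, the pore-forming component of complement, rose from 464 ± 52.5 to 810.1 ± 164 CPM (log2 fold change 0.80 ± 0.19, edgeR adjusted p = 0.00685). F9, the clotting factor IX, rose from 194 ± 7.66 to 254 ± 11.1 CPM (log2 fold change 0.39 ± 0.08, edgeR adjusted p = 0.00191). Other plasma proteins that rose were Hrg, a histidine-rich glycoprotein (log2 fold change 0.47 ± 0.11, edgeR adjusted p = 0.00482), Ambp, the precursor of alpha-1-microglobulin and bikunin (log2 fold change 0.33 ± 0.09, edgeR adjusted p = 0.0143), and Prg4, a lubricating proteoglycan (log2 fold change 0.93 ± 0.17, edgeR adjusted p = 0.000729). In this strain 5 of 46 acute-phase and carrier proteins rose and 1 fell, with a median of 0.39, and 2 of 55 serpins and protease inhibitors rose. Against 10.4% of all genes, the share called was a little higher in the first list and lower (3.64%) in the second. Without chow replicates 1 to 3 none of either list was called. Albumin did not pass, with Alb at -0.31 ± 0.11 (log2 fold change, SE; edgeR adjusted p = 0.0572), and it passed without high-fat replicate 4 (0.0136).

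Of 123 hormones, growth factors and cytokines 11 rose and 7 fell, 14.6% against 10.4% of all genes. Vegfb, a growth factor of the VEGF family (ENSMUSG00000024962.13, chromosome 19, 6982473 to 6987651), was at 10.4, 13.2, 11.6, 13.6 and 10.6 CPM in the 5 chow livers and 5.30 to 7.44 CPM (median 5.73) in the 6 high-fat livers. All 6 high-fat livers were lower than all 5 chow livers. Between diets the log2 fold change was -0.99 ± 0.16 (SE), with an edgeR adjusted p of 0.000223. Smoc1, a calcium-binding matricellular protein, fell from 189.5 ± 13.6 to 133.8 ± 12.04 CPM (log2 fold change -0.50 ± 0.07, edgeR adjusted p = 5.78e-05). Inhbb, the activin B subunit, rose from 1.95 ± 0.659 to 4.47 ± 0.891 CPM (log2 fold change 1.19 ± 0.25, edgeR adjusted p = 0.00281), and the Wnt ligand gene Wnt5b rose from 4.23 ± 0.663 to 8.16 ± 1.62 CPM (log2 fold change 0.94 ± 0.19, edgeR adjusted p = 0.00218). Of 128 matrix genes and proteases 5 rose and 5 fell, 7.81% against 10.4% of all genes. Omd, a keratan sulfate proteoglycan, rose from 4.36 ± 1.05 to 13.5 ± 1.91 CPM (log2 fold change 1.63 ± 0.19, edgeR adjusted p = 2.93e-06). Mmp14, a membrane-bound metalloprotease, fell from 24.8 ± 5.49 to 12.7 ± 1.85 CPM (log2 fold change -0.96 ± 0.13, edgeR adjusted p = 2.53e-05), with -0.59 without chow replicates 1 to 3.

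**Figure D4:**
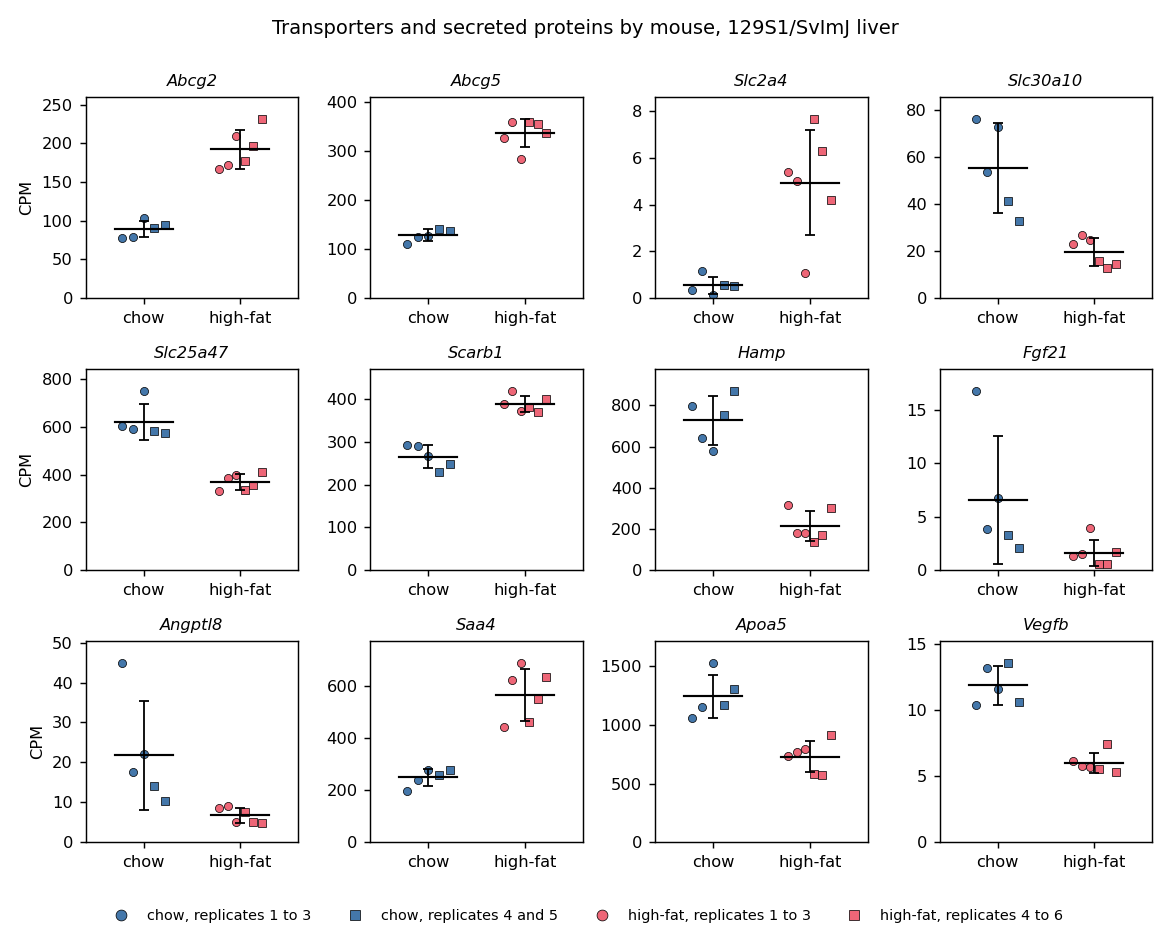
CPM of transporter and secreted protein genes in each 129S1/SvImJ liver by diet (circles and squares: sets sharing an ID number; horizontal line and bars: mean and SD). Abcg2, Abcg5, Scarb1 and Saa4 are higher in all 6 high-fat livers than in any of the 5 chow livers, Hamp, Apoa5, Vegfb and Slc25a47 lower, and for Fgf21 and Angptl8 the highest of 5 chow values is in replicate 1.

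Enzymes were the most often called of these groups, and more rose than fell. Of 69 cytochromes P450 14 rose and 9 fell (33.3% called). Cyp39a1, which hydroxylates oxysterols on the way to bile acids (ENSMUSG00000023963.9, chromosome 17, 43667425 to 43751431), was at 11.3, 19.4, 15.5, 15.8 and 8.66 CPM in the 5 chow livers and 1.87 to 8.35 CPM (median 3.33) in the 6 high-fat livers. High-fat replicate 4 came close to the chow range without reaching it. Expressed as a log2 fold change, this was -1.80 ± 0.31 (SE), with an edgeR adjusted p of 0.000624. Cyp8b1, the sterol 12-alpha-hydroxylase of cholic acid, fell from 450.2 ± 64.3 to 254 ± 51.6 CPM (log2 fold change -0.83 ± 0.15, edgeR adjusted p = 0.000662), and Cyp7a1, which starts bile acid synthesis, was not called (log2 fold change 0.49 ± 0.40, edgeR adjusted p = 0.491). Cyp17a1, a hydroxylase of steroids, fell from 13.7 ± 7.90 to 3.20 ± 0.424 CPM (log2 fold change -2.08 ± 0.45, edgeR adjusted p = 0.00425).

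P450 genes of drug metabolism went both ways. Cyp2b10 fell from 3.77 ± 0.498 to 0.683 ± 0.459 CPM (log2 fold change -2.51 ± 0.39, edgeR adjusted p = 0.000127) and Cyp3a11 rose from 530.3 ± 144 to 1390.0 ± 370.2 CPM (log2 fold change 1.39 ± 0.22, edgeR adjusted p = 0.000237). Both have close relatives in the genome among which reads may have been split, so their values are uncertain. Fmo5, a flavin monooxygenase (ENSMUSG00000028088.14, chromosome 3, 97628804 to 97655282), was at 381, 461, 493, 496 and 652 CPM in the 5 chow livers and 1158 to 1448 CPM (median 1277) in the 6 high-fat livers. All high-fat values were above the chow range by a wide gap. The log2 fold change was 1.38 ± 0.10 (SE), with an edgeR adjusted p of 1.08e-09. Hsd17b11, a dehydrogenase found on lipid droplets, rose from 157 ± 13.3 to 303 ± 6.75 CPM (log2 fold change 0.95 ± 0.09, edgeR adjusted p = 5.32e-08). Rdh11, a retinal reductase (ENSMUSG00000066441.14, chromosome 12, 79174337 to 79192293), was at 80.2, 73.5, 77.3, 88.9 and 101 CPM in the 5 chow livers and 8.88 to 16.1 CPM (median 11.4) in the 6 high-fat livers. A wide gap separated the diets. In log2 terms the change was -2.85 ± 0.28 (SE), with an edgeR adjusted p of 7.87e-07.

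Of 67 conjugation enzymes 16 rose and 5 fell, 31.3% against 10.4% of all genes. The methyltransferases of tryptamine, Inmt (log2 fold change 1.25 ± 0.20, edgeR adjusted p = 0.000244), and of histamine, Hnmt (log2 fold change 0.97 ± 0.15, edgeR adjusted p = 0.000158), rose. Pemt, which makes phosphatidylcholine by methylation, fell from 227 ± 19.2 to 169 ± 9.83 CPM (log2 fold change -0.42 ± 0.06, edgeR adjusted p = 5.1e-05). Among acyl-CoA enzymes Acot11, a thioesterase (ENSMUSG00000034853.16, chromosome 4, 106744555 to 106804998), was at 20.8, 27.6, 25.8, 25.3 and 35.3 CPM in the 5 chow livers and 77.2 to 106 CPM (median 83.3) in the 6 high-fat livers, with no overlap. Its log2 fold change was 1.70 ± 0.16 (SE), with an edgeR adjusted p of 2.01e-07. Acsl5, an acyl-CoA synthetase, fell from 332 ± 30.9 to 214 ± 11.1 CPM (log2 fold change -0.64 ± 0.14, edgeR adjusted p = 0.00419).

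All 10 called genes of 47 in fatty acid oxidation and ketone body synthesis rose (21.3% called, against 10.4% of all genes). They included the peroxisomal enzymes Acaa1b (log2 fold change 1.05 ± 0.17, edgeR adjusted p = 0.000163), which has a close relative, Ehhadh (log2 fold change 0.88 ± 0.15, edgeR adjusted p = 0.000553) and Acox2, of branched-chain acids and bile acid intermediates (log2 fold change 0.62 ± 0.09, edgeR adjusted p = 2.58e-05). Of 41 genes that make fatty acids and triglycerides 6 rose and 8 fell (34.1% called). Gpat4, which adds the first acyl chain to glycerol phosphate, rose from 161 ± 40.3 to 314 ± 41.2 CPM (log2 fold change 0.96 ± 0.14, edgeR adjusted p = 4.74e-05). The acetyl-CoA carboxylase gene Acacb, whose product makes the malonyl-CoA that restrains oxidation, fell from 138 ± 38.9 to 59.2 ± 18.3 CPM (log2 fold change -1.23 ± 0.29, edgeR adjusted p = 0.00831).

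In glucose metabolism 8 of 72 rose and 4 fell, 16.7% against 10.4% of all genes. Aldoc, the aldolase isoform of brain (ENSMUSG00000017390.15, chromosome 11, 78322968 to 78327781), was at 12.98, 12.98, 13.2, 16.3 and 20.2 CPM in the 5 chow livers and 2.09 to 3.01 CPM (median 2.54) in the 6 high-fat livers. The high-fat livers lay within a narrow range far below chow. On the log2 scale the difference between diets was -2.54 ± 0.19 (SE), with an edgeR adjusted p of 9.68e-10. Pdk2, a kinase that shuts off pyruvate dehydrogenase, rose from 117 ± 9.26 to 159 ± 13.9 CPM (log2 fold change 0.44 ± 0.09, edgeR adjusted p = 0.00232). In amino acid and one-carbon metabolism 19 of 91 rose and 5 fell (26.4% called). The lysine-degrading Aass (log2 fold change 0.67 ± 0.11, edgeR adjusted p = 0.00019), the branched-chain dehydrogenase subunit Bckdhb (log2 fold change 0.35 ± 0.05, edgeR adjusted p = 9.24e-05) and the kynurenine hydroxylase Kmo (log2 fold change 0.54 ± 0.10, edgeR adjusted p = 0.000557) rose, and Agxt, which clears glyoxylate, fell (log2 fold change -0.79 ± 0.20, edgeR adjusted p = 0.0133).

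Signalling genes included receptors and feedback inhibitors of growth factor pathways. Spry4, an inhibitor of growth factor signalling through RAS (ENSMUSG00000024427.6, chromosome 18, 38586247 to 38601415), was at 21.5, 17.1, 16.5, 19.6 and 23.2 CPM in the 5 chow livers and 62.4 to 76.6 CPM (median 73.0) in the 6 high-fat livers. The lowest high-fat liver far exceeded the highest chow liver. The fitted log2 fold change was 1.88 ± 0.21 (SE), with an edgeR adjusted p of 2.3e-06. Spred1, an inhibitor of the same pathway, rose from 30.04 ± 3.38 to 45.4 ± 4.05 CPM (log2 fold change 0.59 ± 0.11, edgeR adjusted p = 0.000798), and so did Met, the receptor of hepatocyte growth factor (log2 fold change 0.48 ± 0.07, edgeR adjusted p = 6.67e-05). Ppm1k, the phosphatase that activates branched-chain amino acid breakdown (ENSMUSG00000037826.5, chromosome 6, 57506502 to 57535468), was at 195, 195, 222, 220.0 and 226 CPM in the 5 chow livers and 328 to 414 CPM (median 369) in the 6 high-fat livers, without overlap. This was a log2 fold change of 0.82 ± 0.09 (SE), with an edgeR adjusted p of 1.18e-06.

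Of 98 G protein-coupled receptors 7 rose and 6 fell, 13.3% against 10.4% of all genes. P2ry1, a receptor of ADP, rose from 23.3 ± 9.17 to 62.2 ± 7.73 CPM (log2 fold change 1.41 ± 0.26, edgeR adjusted p = 0.00129). Avpr1a, the vasopressin receptor of hepatocytes, fell from 33.3 ± 10.9 to 13.04 ± 3.30 CPM (log2 fold change -1.34 ± 0.31, edgeR adjusted p = 0.00781), with -0.74 without chow replicates 1 to 3, and Agtr1a, the angiotensin receptor, fell (log2 fold change -0.46 ± 0.09, edgeR adjusted p = 0.00203). Of 154 cytokine and growth factor receptors 7 rose and 10 fell. Prlr, the prolactin receptor (ENSMUSG00000005268.20, chromosome 15, 10177238 to 10349180), was at 166, 224, 152, 157 and 135 CPM in the 5 chow livers and 58.6 to 118 CPM (median 77.3) in the 6 high-fat livers. None of the high-fat livers reached the chow range. The diet effect as a log2 fold change was -1.04 ± 0.20 (SE), with an edgeR adjusted p of 0.00151. Notch2, a receptor of cell fate signals, fell from 199 ± 13.7 to 153 ± 6.39 CPM (log2 fold change -0.37 ± 0.07, edgeR adjusted p = 0.000736), and the integrin subunit Itga5 fell (log2 fold change -1.07 ± 0.19, edgeR adjusted p = 0.000553), with -0.42 without chow replicates 1 to 3.

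Among 174 kinases 8 rose and 14 fell, 12.6% against 10.4% of all genes. Camk1d, a calcium-activated kinase, fell from 80.2 ± 4.69 to 37.1 ± 6.31 CPM (log2 fold change -1.11 ± 0.18, edgeR adjusted p = 0.000279), and Eif2ak3, the kinase PERK of the unfolded protein response, fell from 30.2 ± 2.24 to 20.3 ± 2.25 CPM (log2 fold change -0.57 ± 0.11, edgeR adjusted p = 0.00157). Ulk1, the kinase that starts autophagy (ENSMUSG00000029512.11, chromosome 5, 110784488 to 110810097), was at 184, 173, 184, 177 and 170.5 CPM in the 5 chow livers and 87.8 to 110.0 CPM (median 99.0) in the 6 high-fat livers. The chow values were nearly uniform and the high-fat values were well below them. Between diets the log2 fold change was -0.83 ± 0.10 (SE), with an edgeR adjusted p of 2.42e-06.

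Ulk1 was 1 of 17 genes that fell among 74 tested genes of lysosome and autophagy, a list drawn up after gene values had been seen. In that list 5 rose and 29.7% were called, against 10.4% of all genes, and this share is a description. The median log2 fold change was 0.01, and without chow replicates 1 to 3 there were 2 higher and 10 lower. The genes named in this paragraph all fell, and none of the 5 that rose is named. Flcn, which controls lysosomal nutrient signalling, fell from 64.7 ± 5.60 to 40.6 ± 3.36 CPM (log2 fold change -0.67 ± 0.10, edgeR adjusted p = 4.74e-05). Sqstm1, the autophagy receptor p62, fell from 348 ± 41.1 to 253 ± 10.2 CPM (log2 fold change -0.46 ± 0.07, edgeR adjusted p = 0.000119), and Atg16l2, a relative of a core autophagy protein, fell from 32.9 ± 3.85 to 13.1 ± 1.63 CPM (log2 fold change -1.33 ± 0.22, edgeR adjusted p = 0.000291); both were picked after their values were seen. Sesn1, a stress-induced inhibitor of mTORC1, fell from 22.3 ± 2.12 to 14.0 ± 1.93 CPM (log2 fold change -0.66 ± 0.11, edgeR adjusted p = 0.000237). Lysosomal enzymes were among both the higher and the lower genes.

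Of the remaining lists, 15 of 352 ubiquitin and proteasome genes rose and 18 fell, 9.38% against 10.4% of all genes. Rnf103, a ubiquitin ligase of the endoplasmic reticulum (ENSMUSG00000052656.12, chromosome 6, 71493894 to 71510881), was at 186, 172, 195, 184 and 177 CPM in the 5 chow livers and 108 to 127 CPM (median 119.7) in the 6 high-fat livers. The groups were clearly apart, with little spread in either. Expressed as a log2 fold change, this was -0.62 ± 0.06 (SE), with an edgeR adjusted p of 4.16e-08. Of 72 actin, tubulin and keratin genes 8 rose and 8 fell (22.2% called). Krt23, a keratin, rose from 1.82 ± 0.715 to 7.50 ± 2.46 CPM (log2 fold change 2.07 ± 0.39, edgeR adjusted p = 0.00118), and the tubulin gene Tuba1c, which has near-identical relatives and is therefore uncertain, fell from 19.5 ± 5.23 to 8.64 ± 1.14 CPM (log2 fold change -1.16 ± 0.14, edgeR adjusted p = 4.35e-06). Of 118 chaperones 9 rose and 3 fell (10.2%) and of 79 respiratory chain genes 8 rose and none fell (10.1%), shares close to the 10.4% of all genes, and without chow replicates 1 to 3 none of either list was called. Of 81 ribosomal protein genes 1 was called.

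Several of the strongest changes were in genes of no list. Srgap3, a GTPase-activating protein of the cytoskeleton (ENSMUSG00000030257.16, chromosome 6, 112717971 to 112947266), was at 7.79, 11.7, 7.02, 6.63 and 9.58 CPM in the 5 chow livers and 0.511 to 1.68 CPM (median 0.799) in the 6 high-fat livers. It was at a low level in every high-fat liver and several-fold above that in every chow liver. The log2 fold change was -3.21 ± 0.27 (SE), with an edgeR adjusted p of 1.33e-08. Fam198a, a protein-coding gene, fell from 14.7 ± 4.09 to 2.98 ± 0.795 CPM (log2 fold change -2.27 ± 0.23, edgeR adjusted p = 3.72e-07). Smpd3, a neutral sphingomyelinase (ENSMUSG00000031906.9, chromosome 8, 106252548 to 106337988), was at 2.23, 2.72, 2.83, 3.03 and 4.99 CPM in the 5 chow livers and 13.2 to 21.2 CPM (median 19.0) in the 6 high-fat livers. The lowest high-fat liver had over 2 times the highest chow value. In log2 terms the change was 2.504 ± 0.45 (SE), with an edgeR adjusted p of 0.000907. Adgrv1, a very large adhesion receptor, rose from 8.64 ± 2.40 to 46.2 ± 21.6 CPM (log2 fold change 2.41 ± 0.39, edgeR adjusted p = 0.000386).

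Ndrg1, a gene raised by hypoxia and stress (ENSMUSG00000005125.13, chromosome 15, 66929318 to 66969640), was at 40.1, 47.1, 39.8, 17.0 and 13.7 CPM in the 5 chow livers and 6.54 to 10.5 CPM (median 9.10) in the 6 high-fat livers. Chow replicates 1 to 3 were at over 2 times the level of chow replicates 4 and 5, and all 5 were above the high-fat livers. Its log2 fold change was -1.82 ± 0.24 (SE), with an edgeR adjusted p of 2.07e-05, which became -0.78 without chow replicates 1 to 3. Tmco6 fell from a uniform chow level, from 10.7 ± 0.177 to 3.76 ± 0.772 CPM (log2 fold change -1.502 ± 0.16, edgeR adjusted p = 3.41e-07). Tmem97, which binds sterols in the endoplasmic reticulum, fell from 49.8 ± 5.82 to 27.5 ± 1.59 CPM (log2 fold change -0.85 ± 0.12, edgeR adjusted p = 2.27e-05), and Mmab, an adenosyltransferase of cobalamin that shares a promoter region with the mevalonate kinase gene, fell from 23.5 ± 3.76 to 11.5 ± 1.73 CPM (log2 fold change -1.03 ± 0.14, edgeR adjusted p = 1.98e-05). Gda, a guanine deaminase, rose from 46.2 ± 7.87 to 88.96 ± 12.7 CPM (log2 fold change 0.94 ± 0.12, edgeR adjusted p = 8.39e-06), and Mfn2, which fuses mitochondria, rose from 137 ± 18.2 to 198 ± 20.6 CPM (log2 fold change 0.53 ± 0.08, edgeR adjusted p = 6.11e-05).

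Of 2147 tested non-coding and unclassified genes 48 rose and 94 fell (6.61% called). Gm19619 rose from 1.58 ± 0.602 to 11.6 ± 2.07 CPM (log2 fold change 2.86 ± 0.31, edgeR adjusted p = 1.12e-06) and 1700080G11Rik rose from 1.89 ± 0.760 to 8.02 ± 0.631 CPM (log2 fold change 2.09 ± 0.25, edgeR adjusted p = 2.93e-06). Meg3, Rian and Mirg, long non-coding RNAs made from the maternal chromosome in the imprinted Dlk1-Dio3 region of chromosome 12, all fell. Mirg (ENSMUSG00000097391.8, chromosome 12, 109729764 to 109749460) was at 3.09, 3.25, 1.48, 1.80 and 4.33 CPM in the 5 chow livers and 0.166 to 1.44 CPM (median 0.449) in the 6 high-fat livers. The highest high-fat value lay just below the lowest chow value. On the log2 scale the difference between diets was -2.17 ± 0.37 (SE), with an edgeR adjusted p of 0.000321. Meg3 was at 29.7, 41.6, 8.63, 11.5 and 28.5 CPM in the 5 chow livers and 2.63 to 9.35 CPM (median 6.08) in the 6 high-fat livers, with overlap through chow replicate 3 (log2 fold change -2.08 ± 0.42, edgeR adjusted p = 0.00271), and Rian was at 15.6, 23.3, 9.58, 8.99 and 17.3 CPM in the 5 chow livers and 1.57 to 8.81 CPM (median 3.15) in the 6 high-fat livers, without overlap (log2 fold change -1.96 ± 0.44, edgeR adjusted p = 0.00553). Meg3 and Rian were picked after their values were seen. Chow replicates 3 and 4 had the lowest chow values of all 3 genes and the most 7SK RNA (Rn7sk) of the 11 livers, 7258 and 6206 CPM. Without chow replicates 1 to 3, 1 of the 3 was called, lower (median log2 fold change -1.80). Within the high 7SK level of 129S1/SvImJ 0 were called (median -1.51), and within the low level 2 were, both lower (median -2.23). The part of the 7SK level in these falls was not tested.

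Calls among genes that mark other cell types of liver differed by list, against 10.4% of all genes. The share called was above this for T and NK cells (33.3%, 1 of 3 tested) and recruited myeloid cells (15.4%, 2 of 13 tested). It was close to it for cholangiocytes, and below it for Kupffer cells (5.88%) and stellate cells (5.26%). The lists are short, so a low count does not show that a cell type was unchanged, nor a high share that it changed. None of the tested markers of sinusoidal endothelium (20), B and plasma cells (10), adipocytes (8), mesothelium (8) or blood (6) was called. The Kupffer cell markers summed to 380 to 605 CPM on chow and 362 to 659 CPM on high-fat diet, with 1 of 17 called, higher, and a median log2 fold change of 0.59. That sum leans on Slc40a1, with a mean of 248 CPM over the 11 livers, against 41.9 CPM for the next marker, Clec4f. The T and NK cell markers summed to 4.95 to 5.67 CPM and 4.95 to 13.3 CPM (1 of 3 called, higher, median 0.85), those of stellate cells to 666 to 969 CPM and 748 to 870.4 CPM (1 of 19, higher, median -0.01) and those of cholangiocytes to 107 to 161 CPM and 104 to 141 CPM (1 of 10, higher, median -0.20). The markers of recruited myeloid cells summed to 57 to 92.3 CPM and 72.7 to 195 CPM, with a median of 0.83 and 2 of 13 called, both higher, Mpeg1 (log2 fold change 1.07 ± 0.26, edgeR adjusted p = 0.0115) and Ccl6 (log2 fold change 1.39 ± 0.35, edgeR adjusted p = 0.0118). Of the 13 pancreas markers 10 were at 0 in all 11 livers, and no skeletal muscle marker passed the count filter. Without chow replicates 1 to 3 none of the Kupffer, myeloid, T and NK or stellate markers was called, and 1 of 10 cholangiocyte markers was. The part of these cells in any other result was not tested.

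The same diets in C57BL/6J changed 2159 genes (14.9%), 1113 higher (7.66%) and 1046 lower (7.2%). Of the 1514 genes called in 129S1/SvImJ, 588 were also called in C57BL/6J, which is 38.8% of the former and 27.2% of the latter, and 585 of these had the same direction. The sign was the same in 1335 of the 1514 (88.2%). A test of the difference between the strains' diet effects called 43 genes (0.296%), 21 of them among the 1514, and 2077 at an unadjusted p under 0.05. So a gene called in one strain and not in the other was in most cases not shown to differ.

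**Figure D5:**
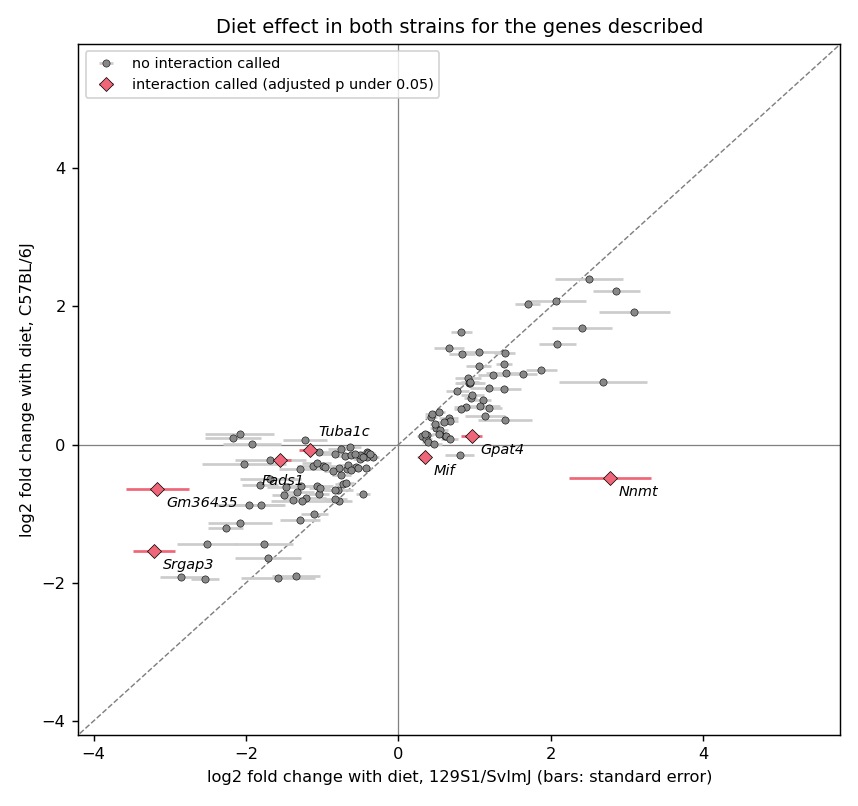
Log2 fold change with diet in C57BL/6J against that in 129S1/SvImJ for the genes described (horizontal bars: SE in 129S1/SvImJ; dashed line: equal effects). Most points have the same sign on both axes, and the red diamonds mark genes whose diet effect differed between strains (edgeR adjusted p under 0.05).

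Genes whose response differed included Srgap3, which fell in both strains and by more in 129S1/SvImJ (-3.21 against -1.54 in C57BL/6J, edgeR adjusted p of the difference = 0.0431). Gpat4 rose in 129S1/SvImJ (0.96) and had a log2 fold change of 0.12 in C57BL/6J (edgeR adjusted p of the difference = 0.0431). Mif, a cytokine gene with close copies in the genome and so uncertain, was at 0.35 and -0.18 (edgeR adjusted p of the difference = 0.0196), and without chow replicates 1 to 3 its 129S1/SvImJ value was 0.23. Tuba1c was at -1.16 and -0.08 (edgeR adjusted p of the difference = 0.0187). The non-coding gene Gm36435 fell in 129S1/SvImJ (-3.16) and was at -0.65 in C57BL/6J (edgeR adjusted p of the difference = 0.0431). The test also called Fads1, the delta-5 desaturase (-1.56 against -0.22, edgeR adjusted p of the difference = 0.0082), and Nnmt, a nicotinamide methyltransferase (2.77 against -0.48, edgeR adjusted p of the difference = 0.0431). The count of 43 fell to 0 without chow replicates 1 to 3.

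Among the lists, cytosolic ribosomal proteins had 1 of 81 called, lower, in 129S1/SvImJ and 65 of 81, lower, in C57BL/6J, with 7 called for the difference. Complement and coagulation genes had 8 higher and 3 lower in 129S1/SvImJ against 3 higher and 23 lower in C57BL/6J, with 2 of 64 called for the difference. Of 128 extracellular matrix genes 5 were higher and 5 lower in 129S1/SvImJ, against 20 higher and none lower in C57BL/6J. Of 138 cell cycle genes 7 were higher and 6 lower, against 32 higher and 2 lower. None was called for the difference in either list. Over all genes tested, 10.4% were called in 129S1/SvImJ and 14.9% in C57BL/6J. In C57BL/6J the LXR list (22 tested) had 10 higher and 1 lower, and the SMAD list (21 tested) 3 higher and 3 lower. The ATF4 list (29 tested) had 2 higher and 5 lower there. Of all genes 7.66% were higher and 7.2% lower in that strain.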

How the data were processed

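RNA counts came from 11 livers of 129S1/SvImJ and 13 of C57BL/6J. Liver RNA was extracted with QIAzol, per the labels' protocols, treated with DNase, depleted of ribosomal RNA and made into directional libraries. Tools listed in the submitters' processing notes are STAR 2.5.4b, Bowtie2 2.2.3, Trimmomatic 0.36 and DESeq2 1.26.0, with build mm10. For the annotation and the use of strand in counting, the setting is not given in the sources used here. Raw gene counts per library were deposited by the authors, and all 24 files held the same values as their matrix. Of 53677 identifiers 53582 matched GENCODE M21, which gave symbols and mm10 coordinates, and the 95 others held 0.00747% of counts.

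Counts were tested with edgeR 4.0.16 in R 4.3.3 (filterByExpr, trimmed mean of M-values, robust quasi-likelihood fit of 4 group means to all 24 libraries, two-sided, Benjamini-Hochberg over 14533 genes). Fold changes use a prior count of 0.125, and the SE is the log2 fold change divided by the square root of F. On simulated data the procedure recovered 56.7% of the 1.5-fold changes, 76.1% at 2-fold and 100% at 4-fold, with 4 false calls of 14349 genes. Apart from the genes changed, the simulated counts were drawn independently around the same mean in all 24 libraries. They held no strain difference and no difference between sets sharing an ID number, so false calls from such sets were not measured. Library pairs within a 129S1/SvImJ group differed beyond sampling noise (chi-square over its degrees of freedom 6.28 to 28.5). Replicate numbers did not pair the libraries across diets (correlations of same-numbered deviations -0.0763 to 0.139).

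The members and gene lists were chosen with earlier results of these data known. There were 59 lists, from which 19 misplaced genes were removed, and 5 more were drawn up after values were seen. Genes were named by rule: outside the cholesterol list, in each direction the 12 non-overlapping protein-coding genes of at least 5 CPM that changed most; up to 4 called members per list and direction by p (3 for machinery and marker lists); 4 non-coding and 15 unlisted genes per direction by p; and 15 fixed genes. Some genes that this rule names are not reported here. Exons of another gene cover over 10% of the exonic bases of Acaa1b, Acot11, Apoa5, Onecut1, P2ry1, Slc13a2, Slc27a2, Sqstm1 and Tcf24, so some of their reads may belong to that gene. Alternatives were other normalizations, filters, fits and tools (DESeq2 1.42.0), libraries left out singly or by shared ID number, and the level of the 7SK RNA (Rn7sk), which ran from 2526 to 7258 CPM over the 11 livers.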

Additional observations from a re-analysis of the deposited data

Results flagged for a closer look

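Of 139 genes named, 7 had a diet effect that differed between strains (edgeR interaction test, adjusted p under 0.05), among 43 called over all genes tested. Differences are given on the log2 scale with the C57BL/6J effect subtracted from the 129S1/SvImJ effect. The difference was 3.26 for Nnmt, 0.84 for Gpat4 and 0.53 for Mif. It was -2.51 for Gm36435, -1.67 for Srgap3, -1.34 for Fads1 and -1.09 for Tuba1c.

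A single library stood far from its group (Dixon's test at the 95% level) in 18 of 278 groups checked, 2 diets for each of 139 genes named. Chance flags about 1 in 20 groups. The genes share libraries and are not independent.

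Among chow livers, replicate 3 was the highest for Acaa1b (699.9 CPM, others 378 to 471), Slc25a47 (752 CPM, others 574 to 605), Clu (1276 CPM, others 1040.0 to 1107), Acsl5 (387 CPM, others 313 to 328) and Alb (65060 CPM, others 52520 to 56130). Replicate 2 was the highest for Smoc1 (213 CPM, others 179 to 187) and the lowest for Eif2ak3 (26.4 CPM, others 30.5 to 32.1). Replicate 1 was the lowest for Hnmt (12.7 CPM, others 17.9 to 19.8). Replicate 4 was the highest for Klf10 (114 CPM, others 58.5 to 65.2) and replicate 5 for Adgrv1 (12.9 CPM, others 7.01 to 8.04).

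Among high-fat livers, replicate 3 was the lowest for Hnmt (22.9 CPM, others 34.4 to 39.9) and Npc2 (27.6 CPM, others 33.8 to 36.7). It was the highest for Zfpm1 (58.2 CPM, others 38.3 to 44.0) and Fgf21 (3.96 CPM, others 0.596 to 1.71). Replicate 4 was the highest for Cyp39a1 (8.35 CPM, others 1.87 to 4.02). Replicate 2 was the highest for Tuba1c (10.8 CPM, others 7.48 to 8.61), replicate 5 for Aqp4 (7.44 CPM, others 2.32 to 3.92) and replicate 6 for Nr1h4 (191 CPM, others 160.3 to 165).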

How the results depend on the processing

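Of 1514 genes called for diet (786 higher, 728 lower), leaving out each library in turn left 937 to 1503 (496 to 797 higher, 441 to 706 lower). The lowest came without chow replicate 1, and without chow replicate 2 there were 521 higher. Without chow replicates 1 to 3 there were 269 (123 higher, 146 lower), without high-fat replicates 4 to 6 there were 370 (190 higher, 180 lower), and without high-fat replicates 1 to 3 there were 994 (430 lower). Within the low and the high level of 7SK RNA, 530 (274 higher, 256 lower) and 254 (111 higher, 143 lower) were called. These settings leave fewer libraries, and any other cause was not tested. Without a filter on low counts 466 genes were lower. DESeq2 size factors gave 1508 calls and DESeq2's Wald test 1752.

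Of 43 genes called for the difference between strains, leaving out each 129S1/SvImJ library in turn gave 5 to 103, and leaving out chow replicates 1 to 3, chow replicates 4 and 5, high-fat replicates 1 to 3 and high-fat replicates 4 to 6 gave 0, 168, 2 and 1. Without high-fat replicates 3 and 6 there were 8, and without the libraries with most Adipoq 2. At low 7SK there were 17 and at high 7SK 0, with the level as a term 170, with its log2 value as a term 121, and within the low level over 24 libraries 196. DESeq2's Wald test gave 296. The replicate block gave 17 calls for the difference and 1499 diet calls, and since the numbers do not pair the libraries no more is read from it. The cause of these moves was not tested.

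Of 331 genes that the naming rule took or that were described for their diet effect, 5 changed sign under some alternative. The called genes Arntl (0.39) and Ccn1 (0.16) turned positive without chow replicates 1 to 3, as the uncalled Onecut1 turned from 0.71 to -0.01. Ciart (0.61 to -0.21) and Dbp (0.12 to -0.26), neither called and shown only for the library check, also changed sign there. The uncalled Nr1h3 (0.04) and Igf1 (0.01) changed sign under 2 and 10 alternatives. A fit within the high 7SK level over 24 libraries was not run because it held no high-fat liver, nor was one without libraries rich in adipocyte markers, because none qualified. The splits within 129S1/SvImJ by 7SK level, its log2 value as a term, thinning to the smallest library, and the fits without high-fat replicates 3 and 6 or the libraries with most Adipoq were chosen after seeing the data.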

Other observations

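Other sequence motifs were counted in the promoters of 10265 tested genes, as a description. The letters CCAAT, to which the factor NF-Y binds, were in 42.7% of all, 45.4% of the genes called higher, 46.6% of those called lower outside the cholesterol list and 90.0% of 20 genes of that list. The E-box letters CACGTG, to which clock and other helix-loop-helix factors bind, were in 11.7%, 13.5% and 11.5% of the first 3 sets and in 4 of the 20 genes of the cholesterol list.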
